A study of Mus musculus with 4 samples.

Results

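The kappa light chain V segments are the largest group of gene segments of the immunoglobulin kappa locus on mouse chromosome 6. A developing B cell joins 1 of them to a J segment, and the joined exon, spliced to the constant exon Igkc, encodes the variable part of the kappa light chain, which pairs with a heavy chain to form an antibody. The V segments are grouped into families by sequence, and the number before the hyphen in a name such as Igkv4-54 is the family. In the spleen they are transcribed at a high level by mature B cells and by plasma cells, and each clone mainly uses the segment it has joined. The segments were chosen by symbol alone: every transcript cluster of the array, a set of probes for 1 transcribed unit, with a single gene symbol that starts with Igkv, and 1 cluster for each symbol, the one with the highest mean signal. This gave 86 segments of 20 families among 30176 symbols, and RefSeq lists 79 of them as V segments and 7 as V segment pseudogenes. The table of RefSeq genes (assembly GRCm38.p6) holds 162 Igkv symbols, so 76 had no single-symbol cluster here.

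The arrays measured RNA of splenocytes from 3-week-old DBA/1 mice, an inbred strain prone to collagen-induced arthritis. The BBP pools came from 4 male and 6 female offspring of dams that received benzyl butyl phthalate (BBP), a plasticizer, at 3 μg/ml in their drinking water from 1 week before mating until weaning. The control pools came from 4 male and 12 female offspring of dams without BBP. Each pool was hybridised to 1 Clariom D array, so that 4 arrays stand for 26 animals and no sex has a replicate. The male pair is the BBP male pool set against the control male pool, the female pair the BBP female pool set against the control female pool. These pairs share no array. The study's list of pooled animals names no litters, so litter and exposure cannot be told apart.

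Signals are linear intensities, scaled between arrays by the authors. Different segments are read by different probes, so a higher signal of one segment than of another is not a higher use of it, and 1 segment is compared only between arrays. Segments of one family are alike in sequence and can share signal between their probes. A fold was computed only for segments whose signal reached 100 in 2 or more arrays. This kept 75 segments of 17 families, 72 V segments and the pseudogenes Igkv2-116, Igkv4-56 and Igkv12-47, while 11 segments with means of 17.9 to 93.0 were left without one. Over the whole array 10614 genes passed the same filter.

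The kappa V segments covered a wide range of signal in each pool. Their median over the 75 kept was 5182 in the BBP male pool and 7509 in the BBP female pool, against 7240 and 6057 in the control male and female pools, where the medians of the 10614 genes were 473.1, 479.1, 533.6 and 519.1. The negative control features had medians of 51.1 to 64.1 and 95th percentiles of 671 to 904, and 60, 61, 62 and 63 of the 86 segments lay above the 95th percentile of their own array. The mean over the 4 arrays was 10000 or more for 33 of the segments kept, between 1000 and 10000 for 26 and under 1000 for 16. No segment shared its 4 signals with another gene, and none sat at the top value of the array.

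The order of the segments by signal was nearly the same in all pools. Spearman's rho between the signals of 2 arrays over the 75 segments ranged from 0.992 to 0.995 in the 6 pairs of arrays, a description only, since the arrays share the probes of each segment. Igkv4-54 had the highest signal in every array, and 13 segments were among the 15 highest in all 4. The 5 highest segments of an array made up 37.8% of the summed kappa V signal in the BBP male pool and 36.3% in the BBP female pool, against 38.4% and 38.9% in the control male and female pools. In each pool 8 segments were needed to reach 50% of that sum. Family 4, the family with the most members here, carried 62.8% of it in the BBP male pool and 58.5% in the BBP female pool, against 59.1% and 62.1% in the control male and female pools.

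**Figure D1:**
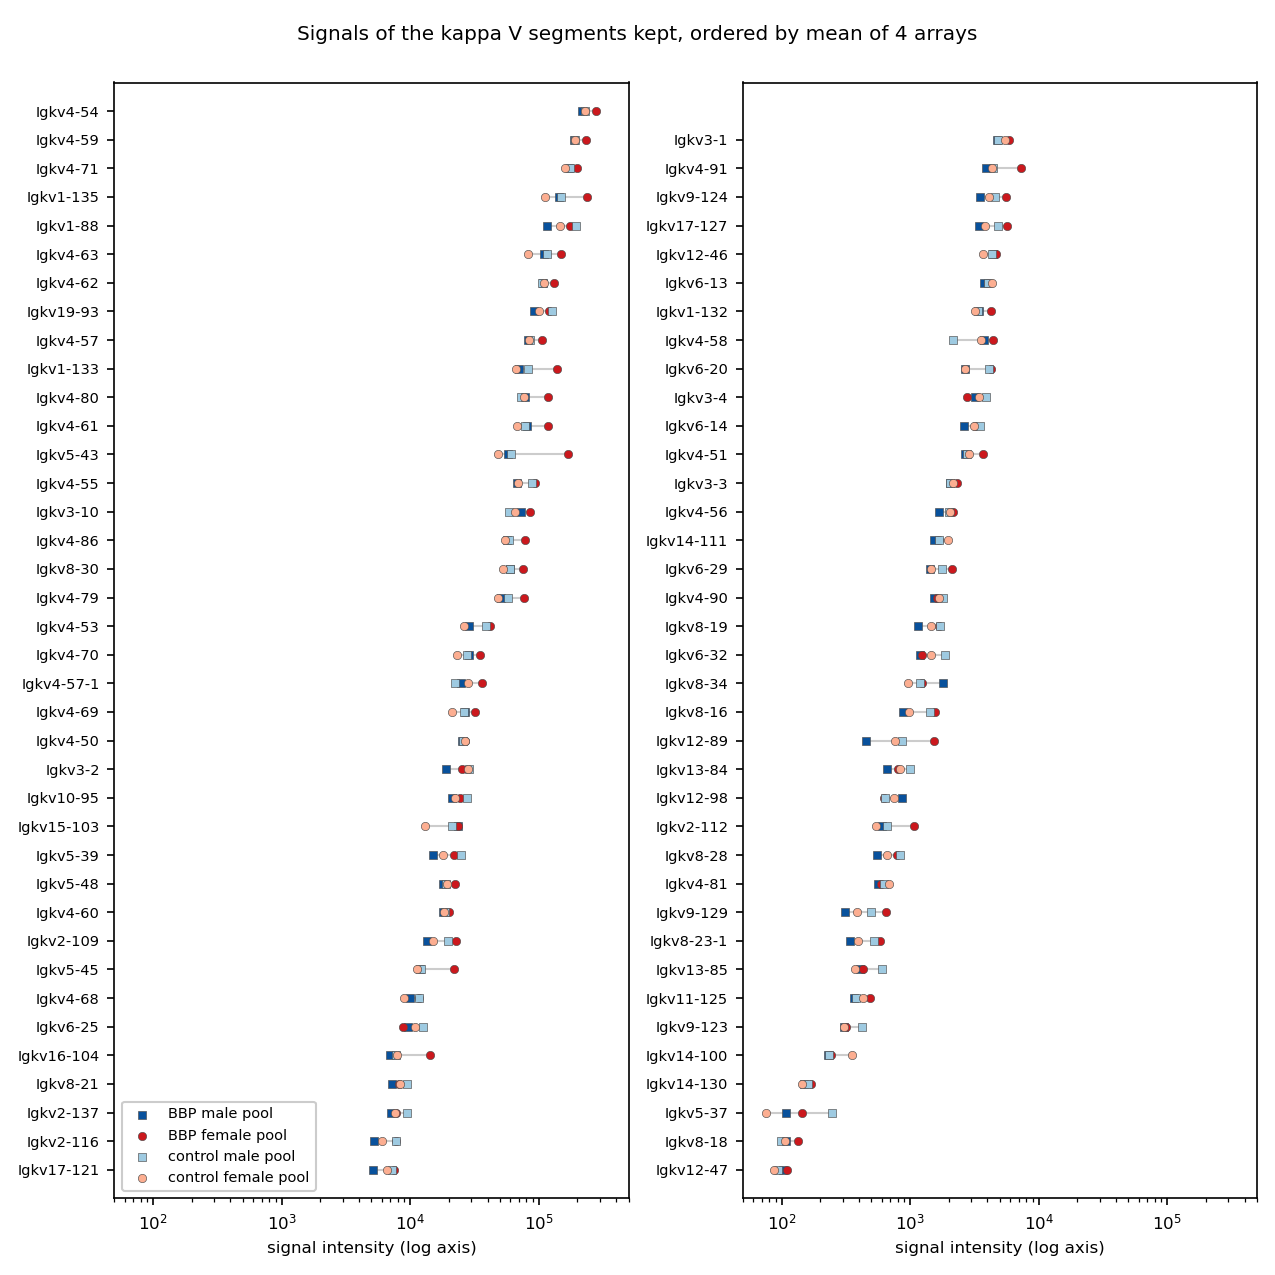
Signal intensity (log axis) of the 75 kappa V segments kept, 1 row for each, ordered by the mean of 4 arrays from upper left to lower right. Each point is 1 pool. The 4 points of a row lie close together beside the range between rows, and the BBP female pool is the rightmost point in 51 of 75 rows.

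The question of the design is how the offspring of BBP-exposed dams differed from those of control dams. The kappa V segments were higher in the BBP female pool and not in the BBP male pool. Their summed signal was 2214210 in the BBP male pool against 2443360 in the control male pool, a fold of 0.906. It was 3079340 in the BBP female pool against 2164690 in the control female pool, a fold of 1.42. The BBP female pool had the highest of the 4 signals for 51 of the 75 segments (68.0%), beside 24.1% of all genes. The BBP male pool had the lowest for 41 segments (54.7%), beside 37.2% of all genes. Of the control pools, the female pool was the lowest of the 4 for 24 segments (32.0%), beside 12.2% of all genes, and the male pool was the highest for 18 (24.0%), beside 40.4%.

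In log2 BBP/control the median over the 75 segments was -0.15 in the male pair, with quartiles of -0.48 and -0.02 and a range of -1.21 to 0.80. In the female pair it was 0.32, with quartiles of 0.12 and 0.60 and a range of -0.55 to 1.80. The medians over all 10614 genes were -0.15 in the male pair and -0.10 in the female pair, so the segments stood at the level of all genes in the male pair and above it in the female pair. In the female pair 63 of 75 segments had a higher signal under BBP, beside 37.3% of all genes, and in the male pair 59 had a lower one, beside 69.1%. The male direction did not stand apart from the shift of all genes. Of the 75 segments 37 lay above the all-gene median of the male pair and 38 below, while 66 lay above that of the female pair. When each array was scaled to the same median over the genes kept, the male median of the segments was 0.02 and that of the female pair 0.44. Among genes of the same signal height, those with a mean of 10000 or more, all 1215 genes had medians of -0.16 in the male pair and -0.34 in the female pair, and the 33 kappa V segments had -0.06 and 0.40.

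The pairs differed in direction for most segments. A segment was higher under BBP in both pairs in 15 cases, beside 19.9% of all genes, and lower in both in 11, beside 51.6%. In 48 segments it was lower in the male pair and higher in the female pair, beside 17.4% of all genes, and in 1 segment, Igkv12-98, named here after its values were seen, it was the other way round, beside 10.4%. The sign was the same in both pairs for 34.7% of the segments and for 71.5% of all genes. This share depends on the scaling. Under median scaling 36 segments were higher in both pairs, beside 37.8% of all genes, and 4 were lower in both, beside 32.4%. The sign was then the same for 40 of 75, beside 70.2% of all genes. For 68 of 75 segments, including all 33 with a mean of 10000 or more, the change was higher in the female than in the male pair, beside 59.6% of all genes. Across the 75 segments the changes of the pairs had a Pearson correlation of -0.03 and a Spearman correlation of 0.05, and over the 59 segments with a mean of 1000 or more these were 0.18 and 0.22. Over all 10614 genes they were 0.57 and 0.53. These are descriptions over probes on shared arrays, in which segments are not replicates.

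**Figure D2:**
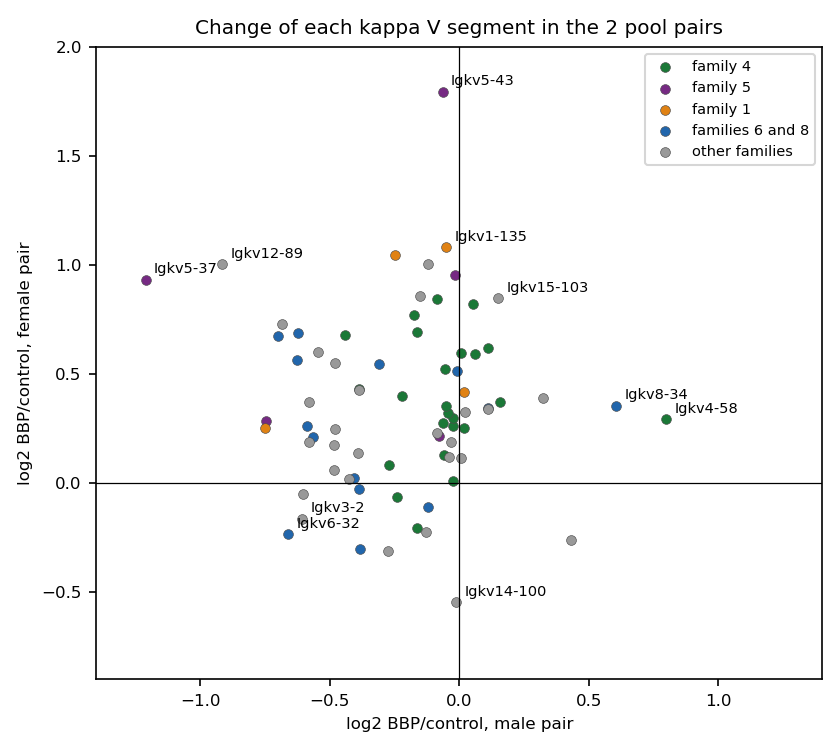
Log2 BBP/control of each of the 75 kappa V segments in the male pair (horizontal) and in the female pair (vertical), coloured by family. The points are densest at the upper left, with 48 segments lower in the male pair and higher in the female pair, and show no common slope.

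Large changes were few, and most were on the female side. No segment was at least 2-fold higher in both pairs, beside 1.22% of all genes, and none was 2-fold lower in both, beside 0.546%. In the female pair 5 segments were at least 2-fold higher, beside 1.62% of all genes (Igkv5-43, Igkv1-135, Igkv1-133, Igkv12-89 and Igkv2-112, the last named after its values were seen), and in the male pair 1, Igkv5-37, was at least 2-fold lower, beside 3.09%. The opposite directions held 0 segments each, beside 1.92% of all genes 2-fold lower in the female pair and 2.32% 2-fold higher in the male pair. At 1.5-fold, 21 segments were higher in the female pair, beside 4.11% of all genes, and 0 were lower, beside 12.2%. In the male pair 2 were 1.5-fold higher, beside 4.48%, and 12 were lower, beside 13.4%. Both BBP pools lay above both control pools for 12 segments, beside 12.4% of all genes, and below both for 9, beside 39.9%.

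No kappa V segment passed the test of exposure. limma, fitted to log2 signals of all 10614 genes with exposure and sex as terms, called 1.52% of all genes higher and 1.29% lower at an adjusted p under 0.05, and 0 of the 75 segments in either direction, whose smallest adjusted p was 0.119 and largest 0.987. At an unadjusted p under 0.05, Igkv4-58 and Igkv8-34 were higher, beside 5.91% of all genes, and Igkv6-32 was lower, beside 21.1%. The fit has 1 residual degree of freedom, which measures how far the male and female pairs differ, so a change present in 1 pair alone counts there as spread.

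The 15 segments with the highest mean were all higher in the female pair, beside 37.3% of all genes. In the male pair 11 of them were lower, near the 69.1% of all genes. They are Igkv4-54, Igkv4-59, Igkv4-71, Igkv1-135, Igkv1-88, Igkv4-63, Igkv4-62, Igkv19-93, Igkv4-57, Igkv1-133, Igkv4-80, Igkv4-61, Igkv5-43, Igkv4-55 and Igkv3-10, of which 9 belong to family 4. In 13 of the 15 the BBP female pool had the highest of the 4 signals, beside 24.1% of all genes. For 7 of the 11 that were lower in the male pair, Igkv4-54, Igkv4-59, Igkv4-71, Igkv1-135, Igkv4-63, Igkv4-57 and Igkv5-43, the male change was under 0.1 on the log2 scale and changed sign under median scaling.

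Igkv4-54, the segment with the highest signal, had 219093 in the BBP male pool against 228996 in the control male pool. In the females it had 277640 in the BBP pool against 229582 in the control pool. Log2 BBP/control was -0.06 in the male pair and 0.27 in the female pair, so that the BBP female pool stood apart and the other pools lay close together. Igkv4-59 and Igkv4-71, of the same family, were also highest in the BBP female pool. Igkv4-59 had 186930 in the BBP male pool and 231826 in the BBP female pool, against 190168 and 193362 in the control male and female pools. The signals of Igkv4-71 were 171082 and 197335 in the BBP male and female pools, against 174069 and 160290 in the control male and female pools. As a share of the summed kappa V signal, Igkv4-54 made up 9.9% in the BBP male pool and 9.02% in the BBP female pool, against 9.37% and 10.6% in the control male and female pools, so its share was lower where its signal was highest.

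Igkv5-43 showed the largest difference of any kappa V segment in either pair. Its signal was 57998 in the BBP male pool and 167767 in the BBP female pool, against 60645 and 48321 in the control male and female pools. The BBP female pool had 3.47 times the signal of its control, a log2 of 1.80, where the male pair stood at -0.06, and its share of the summed kappa V signal was 5.45% in that pool, against 2.23% to 2.62% in the other pools. In the limma fit its change was 0.87 ± 0.45 (log2, SE) with an adjusted p of 0.283.

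Igkv1-135 and Igkv1-133, a pair of family 1 segments, followed the same pattern at a lower fold. Igkv1-135 had 144948 in the BBP male pool and 236757 in the BBP female pool, against 150177 and 111721 in the control male and female pools. The male pair gave a log2 of -0.05 and the female pair 1.08. Igkv1-133 had 70132 in the BBP male pool and 137830 in the BBP female pool, against 83343 and 66716 in the control male and female pools, with log2 values of -0.25 in the male pair and 1.05 in the female pair. For both, the control female pool was the lowest of the 4. Igkv1-88, of the same family, differed. It was lowest in the BBP male pool, at 115879 against 195061 in the control male pool, a log2 of -0.75, while the females had 175131 in the BBP pool against 147269 in the control pool.

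The other segments of the 15 lay between these patterns. Log2 BBP/control in the female pair was 0.84 for Igkv4-63, 0.82 for Igkv4-61, 0.62 for Igkv4-80, 0.43 for Igkv4-55, 0.39 for Igkv3-10, 0.32 for Igkv4-57, and 0.25 each for Igkv4-62 and Igkv19-93. The largest male changes among them were the -0.48 of Igkv19-93 and the -0.39 of Igkv4-55. Igkv3-10 was the only one of the 15 at or above 0.3 in both pairs. It had 73246 in the BBP male pool and 85331 in the BBP female pool, against 58514 and 65127 in the control male and female pools, and both BBP pools lay above both control pools. limma gave it 0.36 ± 0.14 (log2, SE) with an adjusted p of 0.190.

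Among segments of equal sign in both pairs, the 6 with the highest mean change were Igkv4-58, Igkv15-103, Igkv8-34, Igkv4-61, Igkv4-80 and Igkv3-10. Igkv4-58 had 3727 in the BBP male pool and 4382 in the BBP female pool, against 2143 and 3580 in the control male and female pools, with log2 values of 0.80 in the male pair and 0.29 in the female pair. Here the control male pool stood low and the other pools together. Igkv8-34 had 1804 in the BBP male pool and 1234 in the BBP female pool, against 1187 and 965 in the control male and female pools. It had the smallest adjusted p of all kappa V segments, 0.119 by limma, at 0.48 ± 0.14 (log2, SE). Igkv15-103, the only member of its family here, had 23545 in the BBP male pool and 23615 in the BBP female pool, against 21207 and 13126 in the control male and female pools. The control female pool stood low, with 0.15 in the male pair and 0.85 in the female pair, and under quantile normalization the male value was -0.14.

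The 6 with the lowest mean change were Igkv6-32, Igkv3-2, Igkv6-25, Igkv13-84, Igkv3-4 and Igkv14-100, and of these only Igkv3-2 and Igkv6-25 had a mean of 10000 or more. Igkv3-2 had 19013 in the BBP male pool and 25367 in the BBP female pool, against 28961 and 28415 in the control male and female pools, with -0.61 in the male pair and -0.16 in the female pair. Igkv6-32 had 1190 in the BBP male pool and 1235 in the BBP female pool, against 1882 and 1453 in the control male and female pools. In both segments the BBP pools lay below the control pools. limma gave Igkv6-32 a change of -0.45 ± 0.16 (log2, SE) with an adjusted p of 0.168, and Igkv3-2 one of -0.39 ± 0.18 with an adjusted p of 0.235. Igkv6-25 had 9635 and 8868 in the BBP male and female pools, against 12560 and 10942 in the control male and female pools. In Igkv3-4 the values were 3194 and 2752 in the BBP male and female pools, against 3867 and 3421 in the control male and female pools. Both are thus lower by a like amount in each pair, -0.38 and -0.30 for Igkv6-25 and -0.28 and -0.31 for Igkv3-4, male pair first. Igkv13-84 had 660.8 and 810.9 in the BBP male and female pools, against 1004 and 839.1 in the control male and female pools. For this segment the female value, -0.05, changed sign under median scaling. Igkv14-100 had 230.2 and 243.9 in the BBP male and female pools, against 232.2 and 356.5 in the control male and female pools, all under the 95th percentile of the negative controls. Its male value, -0.01, also changed sign under median scaling.

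The 4 segments with the largest opposite changes were Igkv5-37, Igkv12-89, Igkv5-43 and Igkv9-129, and all were lower in the male pair and higher in the female pair. For Igkv5-43 the male value was only -0.06 and changed sign under median scaling. Igkv12-89 had 457.7 in the BBP male pool and 1540 in the BBP female pool, against 862.1 and 768.7 in the control male and female pools. The BBP pools were here the lowest and the highest of the 4, with log2 values of -0.91 in the male pair and 1.00 in the female pair. Igkv9-129 had 311.8 and 645.9 in the BBP male and female pools, against 500.6 and 389.4 in the control male and female pools. Igkv5-37 had 107.5 and 143.5 in the BBP male and female pools, against 248.6 and 75.2 in the control male and female pools. For Igkv5-37 the control pools lay farthest apart, and its signals, like those of Igkv9-129, were under the 95th percentile of the negative controls in every array. A change of at least 1.5-fold down in the male pair and up in the female pair occurred in 5 segments, beside 0.0754% of all genes.

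In the female pair the families differed in size of change more than in direction. Of the 17 families with a segment kept, the median was above 0 in the female pair in 15, below 0 in the male pair in 15, and higher in the female than in the male pair in 16. Of the 10 families with at least 3 segments, these counts were 8, 9 and 9. The medians of all genes were -0.15 in the male pair and -0.10 in the female pair. Among the 10 families, the male medians of families 3, 4, 5 and 14 lay above that of all genes, and that of family 1 was level with it. The male direction of these families, family 1 included, thus depends on the scaling. Family 5 (5 segments) had the largest female median, 0.93, with -0.08 in the male pair. All 5 of its segments were higher in the female pair and lower in the male pair, where under median scaling 2 of the 5 were lower. Its share of the summed kappa V signal was 4.65% in the BBP male pool and 7.60% in the BBP female pool, against 4.79% and 4.48% in the control male and female pools. Family 1 (4 segments) had a median of -0.15 in the male pair and 0.73 in the female pair. Family 4 (24 segments) had -0.05 and 0.36, and 22 of its segments were higher in the female pair. Families 8 (8 segments), 2 (4 segments) and 9 (3 segments) were lower in the male pair, at -0.47, -0.49 and -0.48, and higher in the female pair, at 0.35, 0.48 and 0.42.

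By sign of the median, without median scaling, the exceptions were families 6 and 14 in the female pair and family 12 in the male pair. In family 6 all 6 segments were lower in the male pair, with a median of -0.39, and the female pair was split, 3 higher and 3 lower, with a median of -0.04. Family 14 (3 segments) had -0.08 in the male pair and -0.22 in the female pair. Family 12 (4 segments) had 0.07 in the male pair and 0.33 in the female pair. Of its segments, Igkv12-47 was under that percentile in every array. Igkv12-98 was under it in the BBP female and control male pools, and Igkv12-89 in the BBP male pool. In family 3 (5 segments) both medians were near 0, at -0.04 and 0.12. Members of a family can share probe signal and are not independent of each other.

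**Figure D3:**
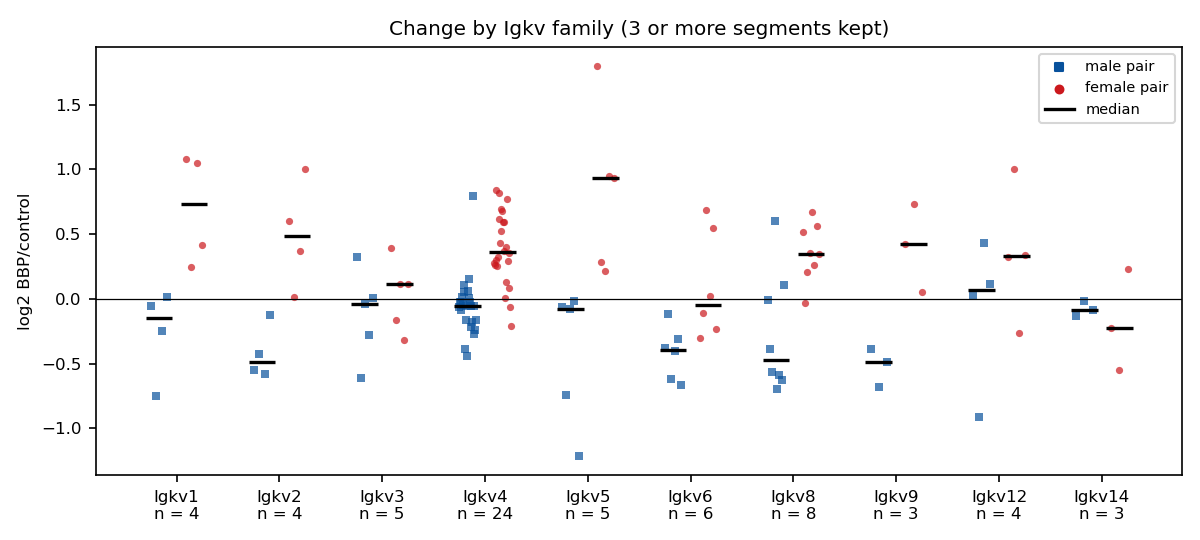
Log2 BBP/control of the segments in each Igkv family with at least 3 segments kept, for the male pair (squares, left) and the female pair (circles, right), with the median as a bar. The female bar lies above the male bar in 9 of the 10 families, and the largest gap is in family 5.

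The position on the locus was taken as rank in the RefSeq annotation, from the segments farthest from the J segments to the nearest, in 3 equal parts of 25 segments. The distal part (Igkv2-137 to Igkv1-88) had medians of -0.25 in the male pair and 0.37 in the female pair. The middle part (Igkv4-86 to Igkv5-48), which holds most of family 4, had -0.06 and 0.32. In the proximal part (Igkv12-47 to Igkv3-1) they were -0.31 and 0.32. The female medians thus differed by less than 0.1 along the locus, and the change was higher in the female than in the male pair in 22, 23 and 23 of the 25 segments.

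**Figure D4:**
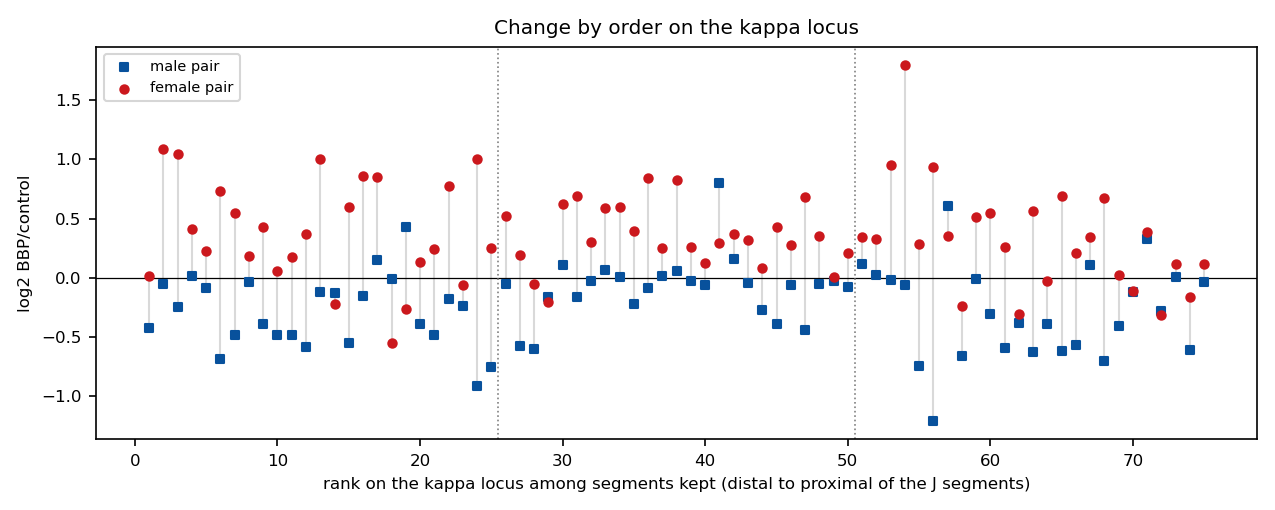
Log2 BBP/control of the 75 kappa V segments in the male pair (squares) and the female pair (circles), ordered by rank along the kappa locus from distal to proximal of the J segments, with dotted lines between the 3 parts of 25 segments. A grey line joins the values of 1 segment, and in 68 of 75 the circle lies above the square.

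The same 4 arrays read as male over female gave opposite signs in the exposure groups. Among the BBP pools the median log2 male/female was -0.35, and 71 of 75 segments were lower in the male pool and 4 higher, beside 57.7% and 42.0% of all genes. Among the control pools it was 0.17, and 54 of 75 were higher in the male pool, beside 53.4% of all genes. These values come from the same arrays as the pairs above and are no separate evidence. For the sex term of the limma fit, 0 segments had an adjusted p under 0.05, beside 0.575% of all genes higher and 0.0471% lower in males, and the smallest adjusted p was 0.256. At an unadjusted p under 0.05, 1 segment was higher and 2 were lower in males, beside 10.1% and 5.41% of all genes.

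Other parts of the kappa locus could be read only in part. Igkc, the constant exon, has no cluster of its own. It is 1 of 14 symbols of a cluster that reads 21059 in all 4 arrays, and it belongs to 72 transcript clusters of the deposited table that hold a single value in every array, among them Actb at 368610 and Eef1a1 at 443790. The sources used here do not say how these equal values arose, so Igkc gives no measure of the total kappa RNA. Among the J segments, to which a V segment is joined, only Igkj3 has a cluster of its own, with 30787 in the BBP male pool and 31098 in the BBP female pool, against 21923 and 33471 in the control male and female pools. Its log2 BBP/control was 0.49 in the male pair and -0.11 in the female pair. Under median scaling these were 0.66 and 0.0096. The 13 clusters with several kappa symbols, the Igkc cluster included, had medians of -0.12 in the male pair and 0.27 in the female pair. Of the 13, 9 were higher in the female pair, beside 37.3% of all genes, and 11 lower in the male pair, beside 69.1%. The Igkc cluster, with its equal values, was neither higher nor lower. The 10 listed lambda light chain genes had no single-symbol cluster.

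The heavy chain V segments differed from the kappa segments most in the male pair. Of the Ighv segments, which encode the variable part of the other antibody chain, 95 were kept. Their median was 0.32 in the male pair, with 87 above 0, beside 30.4% of all genes. In the female pair it was 0.10, with 63 above 0, beside 37.3%. They were higher in both pairs in 58 cases, beside 19.9% of all genes. The medians of all genes were -0.15 in the male pair and -0.10 in the female pair, so both Ighv medians were higher. Their summed signal had a fold of 1.20 in the male pair and 1.18 in the female pair, where the kappa sums had 0.906 and 1.42. No test of the difference between these segment groups was made, as each fold rests on 1 pool for each exposure.

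Genes that act on kappa transcription and joining went both ways. Of the 16 listed, 10 were kept, with medians of -0.01 in the male pair and 0.08 in the female pair, and 0 had an adjusted p under 0.05 by limma (smallest 0.0939). Pou2af1, a coactivator of octamer-binding factors at immunoglobulin promoters, had 18948 and 20569 in the BBP male and female pools, against 20424 and 21291 in the control male and female pools. Ikzf1, a lymphoid zinc finger factor, had 13547 and 15676 in the BBP male and female pools, against 12808 and 13789 in the control male and female pools. Ebf1, a factor that specifies B cells, had 12399 and 12657 in the BBP male and female pools, against 11379 and 12013 in the control male and female pools. None of these differed by more than 0.2 on the log2 scale in either pair. The lowest values of the list, named after they were seen, were those of Vpreb3, a pre-B cell gene, at -0.87 in the male pair and -0.32 in the female pair, and of Dntt, which adds bases at joints, at -0.42 and -0.64. Rag2, a subunit of the joining recombinase, and the surrogate light chain genes Igll1 and Vpreb1, which mark precursors that have not yet joined a light chain, were below the signal minimum.

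Markers of the cell types in spleen differed between the pools in several directions. In bulk RNA, fewer cells of a type and less RNA in each cell cannot be told apart. Of the 10 listed B cell markers 9 were kept, and 7 of 9 were lower in each pair, beside 69.1% of all genes in the male pair and 62.3% in the female pair. Their medians were -0.22 in the male pair and -0.21 in the female pair, 5 of 9 were lower in each pair under median scaling, and 0 had an adjusted p under 0.05 by limma. Blk, a kinase of the B cell receptor, named after its values were seen, was higher in both, at 0.32 and 0.47. Their summed signal was 245184 and 258340 in the BBP male and female pools, against 297009 and 312372 in the control male and female pools. The 3 with the highest signal, the receptor subunit gene Cd79b and the membrane protein genes Ms4a1 and Cd37, had female values of -0.34, -0.44 and -0.03 and male values of -0.37, -0.45 and 0.01.

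Plasma cells carry many immunoglobulin transcripts in each cell. Of their 8 listed markers 3 were kept, and Prdm1, Sdc1, Tnfrsf17, Derl3 and Fkbp11 were below the signal minimum. Jchain, the chain that joins antibody polymers, had 7321 and 7811 in the BBP male and female pools, against 8365 and 6176 in the control male and female pools. This gave -0.19 in the male pair and 0.34 in the female pair. Mzb1, a chaperone of the secretory pathway in B cells, had 2368 and 2320 in the BBP male and female pools, against 6610 and 3107 in the control male and female pools, and Xbp1, a factor needed for secretion, had 1788 and 2424 in the BBP male and female pools, against 2553 and 2873 in the control male and female pools. The sum over these 3 was 11477 and 12555 in the BBP male and female pools, against 17528 and 12156 in the control male and female pools. The part of plasma cells in the kappa V values was not tested.

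T cell markers were higher under BBP in the female pair in 7 of the 7 kept, beside 37.3% of all genes, with a median of 0.57. In the male pair 5 of 7 were higher, beside 30.4%, with a median of 0.10. Their sum was 45666 and 83686 in the BBP male and female pools, against 32641 and 51249 in the control male and female pools, led by Cd8b1, Cd3e and Cd4. The 6 myeloid markers, of which S100a8, Lyz2 and Csf1r were the highest, had medians of -0.25 in the male pair and -0.39 in the female pair. Of the 5 erythroid markers kept, led by Alas2, Slc4a1 and Tfrc, all were lower in the male pair, beside 69.1% of all genes. In the female pair 2 of the 5 were higher, near the 37.3% of all genes. Klf1, a transcription factor of red cell precursors, was the only listed marker past the limma threshold, with 74.2 and 63.1 in the BBP male and female pools, against 213.5 and 173.9 in the control male and female pools (log2 -1.49 ± 0.14 SE, adjusted p 0.0311). All of its signals were under the 95th percentile of the negative controls. In the BBP female pool the Klf1 signal was also under their median, 64.1. The part of these cell types in the kappa V values was not tested either.

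**Figure D5:**
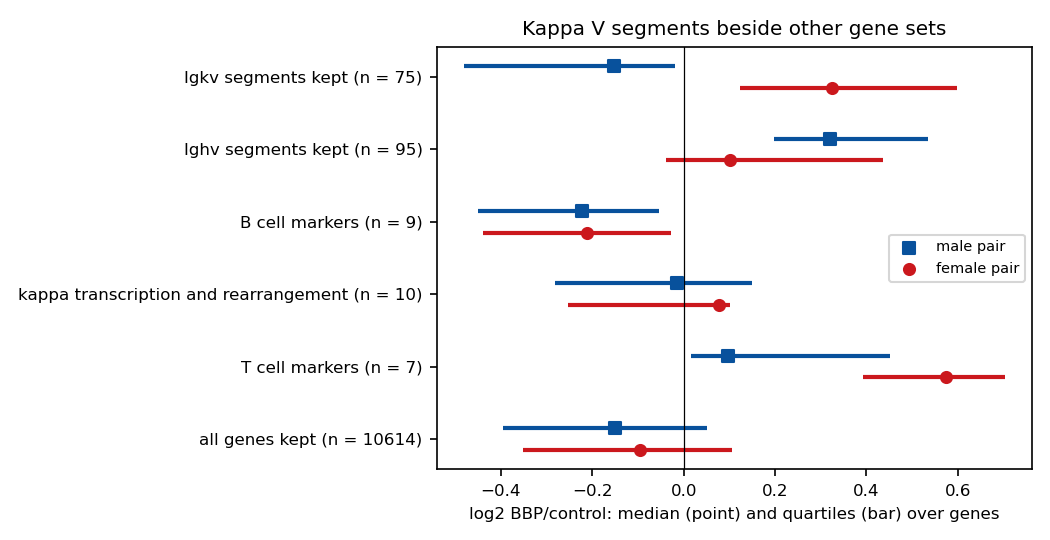
Median (point) and quartiles (bar) of log2 BBP/control over the genes of each set, in the male pair (squares) and the female pair (circles). The kappa V segments lie at -0.15 and 0.32, the heavy chain V segments at 0.32 and 0.10, the B cell markers at -0.22 and -0.21 and all 10614 genes at -0.15 and -0.10, male pair first.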

How the data were processed

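The deposited table holds linear signal intensities, which the authors made with MAS 5.0 (named MAS5 by the submitters' processing notes) and scaled between arrays. The sources used here give neither the scaling target nor the build of the array's annotation, so no coordinates are printed. Of 72688 features, 65956 are transcript clusters, and 30638 of these carry 1 symbol, 2176 several and 33142 none in the platform's probe table. Gene types and locus order came from the RefSeq table of GRCm38.p6, in which all 86 Igkv symbols were found.

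Genes that reached a signal of 100 in 2 or more arrays were used, with no pseudocount. Log2 values were computed from the deposited signals. limma 3.58.1 (R 4.3.3) was fitted to all 10614 genes with terms for exposure and sex and an intensity trend in the prior variance. The Benjamini-Hochberg adjustment was used with a threshold of 0.05. With 1 array for each sex and exposure, pools and not animals are compared, and folds within a sex have no test. The number of arrays limits the precision of all values. The fit was checked on simulated data whose variances followed the prior that limma fitted. It called 37.1% of the simulated 2-fold changes and 95.8% of the 4-fold ones, and 6.21% of its calls fell on unchanged genes. Most 2-fold changes were thus missed. With 1 residual degree of freedom the error rate of the fit depends on that prior. When variances were instead drawn from the fitted posterior values, a larger share of the calls fell on unchanged genes.

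The segments named are the 15 with the highest mean, the 6 highest and 6 lowest by mean change among those of equal sign in both pairs, the 4 with the largest opposite changes, any past the limma threshold or 2-fold in both pairs, and Igkc. Of each fixed list the 3 members with the highest signal and any past the threshold were named. Exceptions are marked. The members, lists and tests were chosen with earlier results of these data known. Alternatives were quantile normalization, median scaling, 50 added to each signal, no filter, a minimum of 200, every single-symbol cluster, identical signals counted once, other limma settings and leaving out each pool. Python 3.11.15, pandas 2.3.3, numpy 2.4.6 and matplotlib 3.10.9 were used.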

Additional observations from a re-analysis of the deposited data

Results flagged for a closer look

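For 5 kappa V segments the pairs differed in direction, each by at least 1.5-fold, lower under BBP in the male pair and higher in the female pair. The difference was not tested, since each sex has 1 pool for each exposure. In log2 BBP/control, male minus female pair, it was -2.14 for Igkv5-37, -1.92 for Igkv12-89, -1.41 for Igkv9-129, -1.37 for Igkv8-16 and -1.31 for Igkv6-20. Igkv8-16 had 880.0 and 1570 in the BBP male and female pools, against 1428 and 983.3 in the control male and female pools. Igkv6-20 had 2666 and 4278 in the BBP male and female pools, against 4097 and 2655 in the control male and female pools. Of the 5, Igkv6-20 and Igkv8-16 lay above the 95th percentile of the negative controls in all 4 arrays, Igkv12-89 in all but the BBP male pool, and Igkv5-37 and Igkv9-129 in none.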

How the results depend on the processing

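Median scaling moved the all-gene medians to 0.023 in the male and 0.020 in the female pair. Under it the male median of the kappa V segments was 0.020. In the male pair 35 segments were below 0, beside 47.1% of all genes. In both pairs 36 were higher, beside 37.8% of all genes, and 4 were lower, beside 32.4%. With each BBP pool set against the control pool of the other sex, an alternative chosen after seeing the data, 26 segments were higher in both and 18 lower in both, and the correlations between pairs were 0.15 (Pearson) and 0.33 (Spearman). The other alternatives kept the counts by sign and by 2-fold within 1.5 times and both medians in their direction. Over all alternatives, the crossed one included, the female median ran between 0.16 and 0.44, 54 to 72 segments were above 0 in the female pair and 58 to 78 had the higher change in the female pair, out of up to 88 segments. limma called 0 segments for exposure and for sex at an adjusted p under 0.05 under every setting run. At an unadjusted p the exposure counts were 0 to 6 higher and 0 to 3 lower over the settings with all 4 pools, and the sex counts 0 to 2 higher and 0 to 4 lower. With 1 pool and the sex term left out, the adjusted counts were 0 to 0 and the unadjusted ones 1 to 10 higher (10 without the BBP male pool) and 0 to 4 lower (4 without the control female pool). In those fits the arm with 1 array is assumed to vary like the other, so they do not show stability. The sex term sets each BBP pool beside the control pool of its sex, and without it the exposure counts were 0 at either p. No paired analysis was possible by replicate number, because each group holds 1 array. Signals near the negative controls limit the segments with means under 1000.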
